A study of Mus musculus with 12 samples.

Results

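The change of gene expression between pre-pro-B and pro-B cells of mouse bone marrow was described in cells sorted as negative for the human CD4 reporter (hCD4-). The comparison uses the 2 arrays labelled pro-B hCD4- and the 2 arrays labelled pre-pro-B hCD4-, which are 4 of the 12 arrays of the series, and it covers all 18556 genes that could be tested. Cells of both groups came from bone marrow of female C57BL/6 mice aged 16 weeks, and every group of the series carries the same Cebpa-Enh/prom reporter, in which Cebpa enhancer and promoter sequence drives human CD4. The other groups are hCD4+ granulocyte-monocyte progenitors (GMP), hCD4+ pre-pro-B cells, hCD4+ pro-B cells and pre-B cells, again with 2 arrays each. RNA was amplified, labelled with Cy3 and hybridised to one-colour Agilent mouse arrays. The series title names a pair of such mice, but the labels do not tie a replicate number to an animal, so p-values measure only the spread between these samples, which may be technical.

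Pre-pro-B cells are the earliest marrow stage usually assigned to the B lineage, and they are not yet committed to it. They still hold lymphoid progenitor features, and in common sorting schemes their gate can overlap with that of plasmacytoid dendritic cells. Pro-B cells are committed: the transcription factors E2A, EBF1, FOXO1 and PAX5 act in a circuit that turns on the surrogate light chain, the CD79 signalling chains and the recombinase that joins immunoglobulin heavy chain segments, while interleukin 7 drives their growth. C/EBP alpha, the product of Cebpa, is a myeloid transcription factor.

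Promoter sequence is shown for 6 B lineage genes that rose and for 2 genes among the largest falls, so that these groups can be read beside the factors whose own genes changed. The sequences are RefSeq promoter windows of build GRCm38.p6, cut to the 250 bases before the annotated start and written 5′ to 3′ along the gene. They are Vpreb1 chr16:16869256-16869505 on the minus strand, Igll1 chr16:16863986-16864235 on the minus strand, Vpreb2 chr16:17980315-17980564 on the plus strand, Vpreb3 chr10:75948050-75948299 on the plus strand, Cd79a chr7:24897247-24897496 on the plus strand, Rag1 chr2:101649533-101649782 on the minus strand, Itgax chr7:128129300-128129549 on the plus strand and Ccr9 chr9:123766961-123767210 on the plus strand. Capitals mark matches, on either strand, to the core of an EBF1 site (CCCNNGGG), an E box as bound by E proteins (CAGNTG), an Ets core as bound by PU.1 (GGAAGT) or a C/EBP site (TTGCNNAA).
Vpreb1: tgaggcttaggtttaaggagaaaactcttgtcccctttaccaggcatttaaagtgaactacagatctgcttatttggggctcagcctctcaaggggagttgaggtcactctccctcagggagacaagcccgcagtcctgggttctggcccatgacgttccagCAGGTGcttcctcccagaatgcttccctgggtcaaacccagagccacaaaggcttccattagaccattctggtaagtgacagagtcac
Igll1: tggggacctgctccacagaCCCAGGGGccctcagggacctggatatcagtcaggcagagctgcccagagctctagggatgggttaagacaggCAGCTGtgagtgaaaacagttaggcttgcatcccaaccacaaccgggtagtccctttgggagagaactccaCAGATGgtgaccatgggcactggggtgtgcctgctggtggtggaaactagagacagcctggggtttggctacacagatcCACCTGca
Vpreb2: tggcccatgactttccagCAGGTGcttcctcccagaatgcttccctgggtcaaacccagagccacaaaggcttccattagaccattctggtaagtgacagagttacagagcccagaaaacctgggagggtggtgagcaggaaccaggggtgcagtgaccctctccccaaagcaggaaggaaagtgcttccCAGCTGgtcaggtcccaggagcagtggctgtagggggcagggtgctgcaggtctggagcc
Vpreb3: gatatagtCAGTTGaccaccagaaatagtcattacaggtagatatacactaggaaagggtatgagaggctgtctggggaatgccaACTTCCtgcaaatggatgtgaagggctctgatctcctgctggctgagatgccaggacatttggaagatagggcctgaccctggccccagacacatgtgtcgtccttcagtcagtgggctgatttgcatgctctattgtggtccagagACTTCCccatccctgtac
Cd79a: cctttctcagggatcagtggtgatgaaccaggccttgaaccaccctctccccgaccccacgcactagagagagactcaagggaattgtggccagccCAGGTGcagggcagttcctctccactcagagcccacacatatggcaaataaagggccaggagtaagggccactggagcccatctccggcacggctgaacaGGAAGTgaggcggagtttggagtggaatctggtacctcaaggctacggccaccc
Rag1: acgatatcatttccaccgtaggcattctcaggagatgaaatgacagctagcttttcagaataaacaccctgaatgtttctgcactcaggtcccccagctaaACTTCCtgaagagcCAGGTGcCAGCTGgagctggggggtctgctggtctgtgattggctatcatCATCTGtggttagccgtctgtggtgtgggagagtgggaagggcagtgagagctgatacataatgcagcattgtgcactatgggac
Itgax: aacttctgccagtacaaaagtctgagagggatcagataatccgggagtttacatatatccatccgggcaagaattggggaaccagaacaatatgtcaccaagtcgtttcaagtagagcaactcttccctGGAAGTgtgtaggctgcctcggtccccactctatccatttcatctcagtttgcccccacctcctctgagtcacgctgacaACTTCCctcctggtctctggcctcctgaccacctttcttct
Ccr9: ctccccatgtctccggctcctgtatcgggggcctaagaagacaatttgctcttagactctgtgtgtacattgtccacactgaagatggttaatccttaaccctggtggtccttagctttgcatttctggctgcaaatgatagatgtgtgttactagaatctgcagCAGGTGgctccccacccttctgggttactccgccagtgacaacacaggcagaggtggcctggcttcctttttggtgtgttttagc

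Of 13 B lineage genes searched, 11 were in the promoter table, and 8 of these held an E box in the window from 250 bases before to 50 bases after the start. Over all 32851 windows of the table, 51.4% held one. The Ets core was in 5 of the 11 and in 23.8% of all windows, the EBF1 core in 1 of the 11 and in 13.7%, and the C/EBP site in none of the 11 and in 10.8%. Igll1 alone among them held the EBF1 core, at position -231, beside E boxes at -158, -87 and -8. Of the 12 largest falls, 6 were in the table, and 5 held an E box, 1 an Ets core (Itgax, at -121 and -41), 1 an EBF1 core and none a C/EBP site. The windows of Vpreb1 and Vpreb2 share an identical run of 91 bases, which holds the E box at -88 of Vpreb1 and at -232 of Vpreb2. A gene counted if any of its windows held a match, whereas the percentages are of single windows. Ebf1 and Ppfia4 had 2 windows each. The Ets core of Ebf1 and the E boxes of Ppfia4 lay only in window 2. All of these are matches of letters, and whether any factor binds there was not measured.

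Levels are given as log2 intensity minus the array's own 75th percentile, so that 0 is the brightness of that percentile and values rank a gene within its array rather than RNA per cell. The pre-pro-B hCD4- arrays were the dimmest of the series, with 75th percentiles of 362 and 247 intensity units against 435 to 953 on the other arrays, and their spike-in controls lay 6.19 and 6.37 above that percentile against 3.45 to 5.63 elsewhere. Their replicates also spread most, with a median standard deviation (SD) of 0.22 against 0.10 for pro-B hCD4- arrays, so the pooled spread used in the test can understate the error of this step. These arrays shared 1 slide with the GMP arrays, and the pro-B hCD4- arrays shared another with the hCD4+ pre-pro-B arrays, so slide, scan and cell stage cannot be told apart here. The 4 arrays had 50.7% to 55.0% of their probes well above background, and replicate correlations across genes were 0.982 and 0.991.

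The labelled stages were first checked against their markers. Ebf1, Pax5 and Igll1 were not well above background on either pre-pro-B array and were measured on both pro-B arrays. Il7r, Blnk, Dntt and Ly6d, which mark lymphoid progenitors and the earliest B lineage cells, were well above background on all 4 arrays. The pre-pro-B arrays also held bright signal from genes of plasmacytoid dendritic cells: all 20 listed genes were well above background on both arrays, with Cox6a2 at 7.87 and 8.03, Bst2 at 7.61 and 7.06 and Ccr9 at 5.61 and 5.28. The classical dendritic cell genes Itgax (5.02 and 5.07) and Clec10a (5.21 and 5.09) were bright as well. RNA of dendritic cells in the pre-pro-B gate and expression of these genes in B lineage progenitors cannot be told apart in bulk arrays, nor can fewer cells of a type and less RNA per cell. Their part in the results was not tested.

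Most genes passed the test in this step. Of 18556 genes, 11059 (59.6%) had an adjusted p under 0.05 in limma: 6085 (32.8%) were higher and 4974 (26.8%) lower in pro-B cells. The median change over all genes was 0.03 on the log2 scale, and the middle 50% of changes ran from -0.69 to 0.80. The arrays of the 2 groups did not overlap for 14562 genes (78.5%). Because a call alone says little at this background, calls of at least 8-fold are given too, a rule chosen after seeing the data, which 720 genes (3.88%) met in the higher and 676 (3.64%) in the lower direction. With 2 arrays against 2, an exact permutation test of a single gene cannot give a p below 0.333, so single genes rest on the spread pooled over the 12 arrays.

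**Figure D1:**
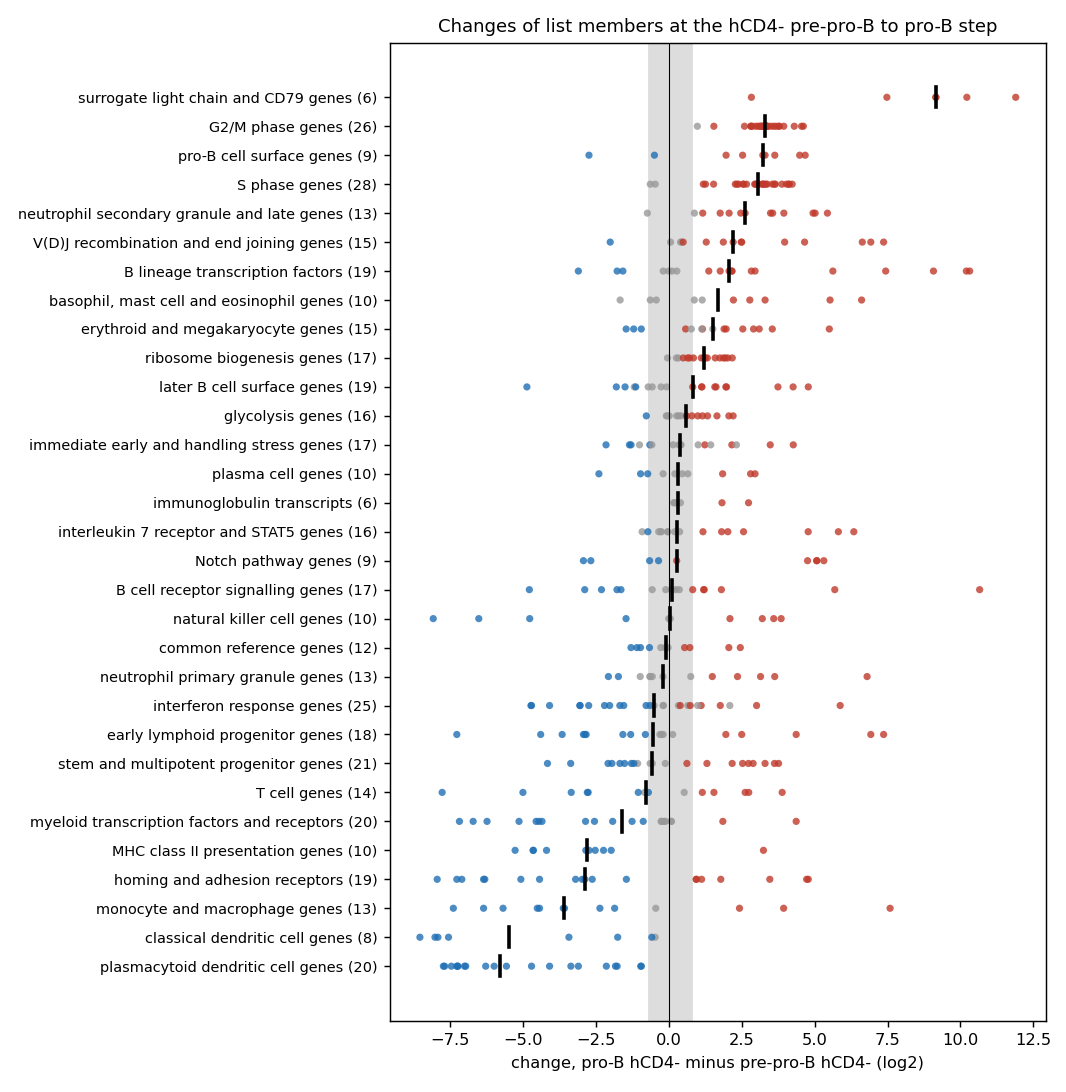
Change of each kept member of the gene lists, pro-B hCD4- minus pre-pro-B hCD4- arrays (log2, n = 2 against 2), with 1 row per list and the number of kept members in brackets. Red and blue points had an adjusted p under 0.05, grey points did not, black bars are list medians, and the grey band spans the middle 50% of all 18556 genes. Surrogate light chain and CD79 genes lie farthest to the right (median 9.16) and plasmacytoid dendritic cell genes farthest to the left (-5.77).

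Transcription factors of the B lineage went both ways. Of 19 listed, 12 were higher and 3 lower, with a median change of 2.07, and 5 were higher and 1 lower by at least 8-fold. Ebf1, which specifies the lineage, lay at -6.46 and -6.01 on the pre-pro-B arrays, not well above background, and at 4.12 and 4.04 on the pro-B arrays. It was at least 309-fold higher (adjusted p = 3.88e-07), a bound that sets the dim group at the lowest signal still well above background. Lef1, a Wnt pathway factor of early B cells, lay at -5.33 and -3.99 and then at 5.43 and 5.65, the largest bound of the comparison at 850-fold or more. Pou2af1, a coactivator of octamer factors, was measured on all 4 arrays, at -3.98 and -2.55 and then at 5.79 and 5.84, and rose by 9.08 (standard error 0.61, adjusted p = 5.02e-06). Pax5, the commitment factor, stayed dimmer, at -0.73 and -0.62 on the pro-B arrays, at least 11.5-fold above the pre-pro-B arrays, and its other kept probe rose by 3.05. For each of these 4 genes, named in part for the size of their changes, the groups were far apart and the pro-B replicates differed by no more than 0.22.

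Tcf3, which encodes the E2A proteins, lay at 1.60 and 2.05 in pre-pro-B cells and rose by 2.17 (standard error 0.19). Foxo1, which acts with E2A and EBF1, rose by 1.77, and Erg, an Ets factor, was at least 71.6-fold higher (other probe 5.98). Bach2, Irf4, Myb and Sox4 rose by 2.83, 2.96, 2.16 and 2.07 (other probe of Bach2 1.66). The 3 that fell were Tcf4 (-3.09), Spib (-1.77) and Bcl11a (-1.57), of which Tcf4 and Spib are also factors of plasmacytoid dendritic cells. Ikzf1, Ikzf3, Runx1 and Tcf12 had no call, with changes of -0.19, 0.11, 0.00 and 0.28, but the other probes of Ikzf1 and Tcf12 gave -1.67 and -1.11. The count of lower factors was 5 in the authors' deposited table.

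The surrogate light chain and CD79 genes formed the group with the highest median change of all lists. All 6 rose, 5 of them by at least 8-fold, with a median of 9.16. Igll1, which encodes the lambda 5 part of the surrogate light chain, lay at -6.61 and -6.11 in pre-pro-B cells, not above background, and at 5.42 and 5.64 in pro-B cells, at least 845-fold higher. Vpreb1, its partner chain, was measured on all 4 arrays, at -1.31 and -0.80 and then at 8.15 and 8.07 (9.16, standard error 0.22, adjusted p = 8.53e-08), a 573-fold rise. Vpreb3, which binds nascent light chains, went from -3.09 and -1.42 to 7.96 on both arrays, the largest rise among genes measured in both groups (10.22, standard error 0.63). Both were thus already measurable before the pro-B stage, while Igll1 was not.

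Vpreb2 is a near copy of Vpreb1, and how far its probe also detects Vpreb1 was not tested. It lay at -4.24 and -3.04, above background on 1 of 2 pre-pro-B arrays, and at 5.40 and 5.62 in pro-B cells. Cd79a and Cd79b encode the signalling chains of the receptor, and they started from different levels. Cd79a rose from -2.23 and -1.48 to 5.59 and 5.66 (7.48, standard error 0.28; other probe 6.22). Cd79b was already bright, at 4.20 and 4.02, and rose to 6.97 and 6.92 (2.84, standard error 0.12). In the array annotation (mm9) the printed probes of Vpreb1 and Igll1 lie on chromosome 16 at 16868559 to 16868618 and 16861104 to 16861163, and that of Ebf1 on chromosome 11 at 44818438 to 44818497.

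**Figure D2:**
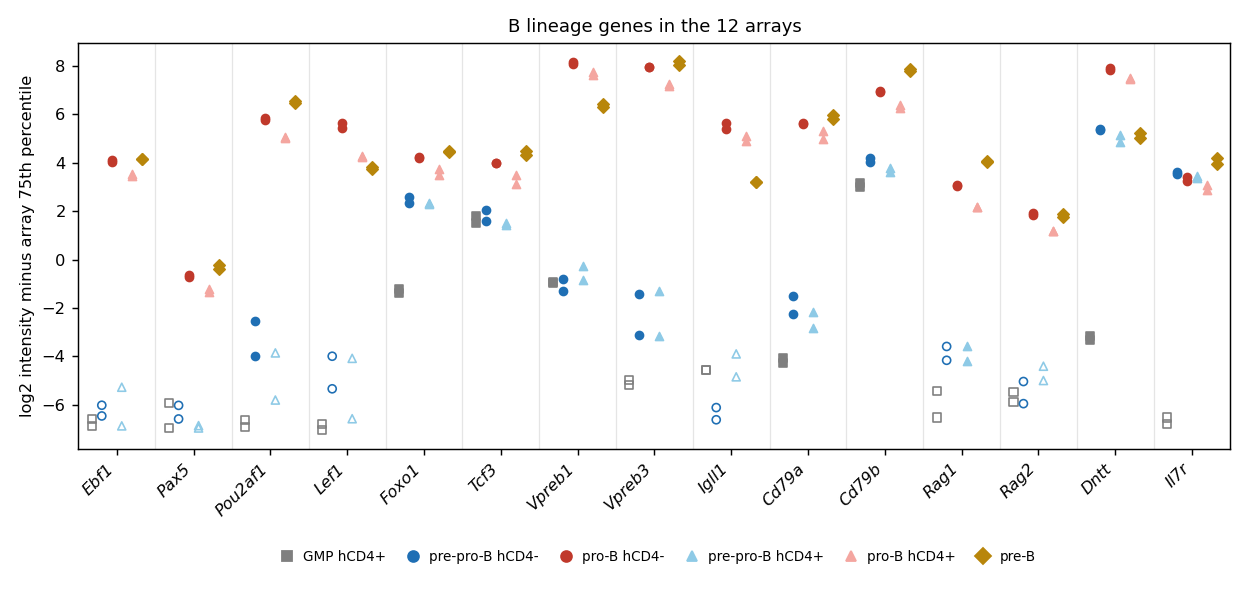
Levels of B lineage genes on each of the 12 arrays (log2 intensity minus the array's 75th percentile), 2 points per group. Open symbols mark groups in which the probe was not well above background on both arrays. Vpreb1 lies near -1 on the pre-pro-B hCD4- arrays and near 8 on the pro-B hCD4- arrays, while Il7r lies between 3.25 and 3.61 on all 4.

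Genes of B cell receptor signalling did not move as a group. Of 17, 6 were higher and 5 lower, with a median change of 0.13 that fell to -0.08 under quantile normalization and -0.04 under cyclic loess. Dok3, an inhibitory adaptor, rose by 5.69 (standard error 0.30), and the adaptor Blnk, bright in both groups, by 1.20 (standard error 0.15). Fyn, a Src family kinase, and Ptpn6, a phosphatase, fell by 2.88 and 2.30.

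Of 15 genes of V(D)J recombination and end joining, 11 were higher and 1 lower, and the median change was 2.21. Rag1 and Rag2 encode the recombinase. Rag1 lay at -3.58 and -4.16, above background on 1 of 2 arrays, and then at 3.09 and 3.03 (6.93, standard error 0.35; other probe 5.56). Rag2 was not above background in pre-pro-B cells and lay at 1.92 and 1.83 in pro-B cells, at least 67.0-fold higher, with 3.76 at its other probe. Dntt, the template-free polymerase that adds bases at the joints, was bright before the step, at 5.40 and 5.35, and rose to 7.92 and 7.84 (2.50, standard error 0.14). The recombinase genes therefore started at or below background and Dntt well above it.

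End joining genes rose unequally. Poll, a gap-filling polymerase, was at least 51.6-fold higher, and Xrcc5, a Ku subunit, and Lig4, the joining ligase, rose by 4.66 and 3.98. Xrcc6, the other Ku subunit, rose by 2.21. The nuclease gene Dclre1c fell by 2.00, while Xrcc4, Prkdc and Atm had changes of 0.43, 0.41 and 0.07 without a call, and the other probe of Atm gave -1.14.

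Il7r, the receptor chain for interleukin 7, was at 3.55 and 3.61 in pre-pro-B and 3.42 and 3.25 in pro-B cells (-0.25, standard error 0.14, adjusted p = 0.166). The groups did not overlap, but the difference did not pass the test here, and it ran from -0.05 under array median scaling to -0.50 under the authors' deposited normalization, with a call under 4 alternatives. Of the 16 genes of the interleukin 7 and STAT5 list, 7 were higher and 1 lower (median 0.29; 4 lower under quantile normalization and normexp, 5 under cyclic loess, 3 in the authors' deposited table and 0 under array median scaling), and Jak1, Stat5a and Stat5b had no call. Genes known as STAT5 targets and growth genes made up most of the rises, while 8 of the 16 listed genes had no call. Socs2, a feedback inhibitor of cytokine signalling, was not above background in pre-pro-B cells and lay at 0.54 and 0.64 in pro-B cells, at least 27.5-fold higher (other probes 4.81 and 4.52). Cish, a relative of it, rose by 4.78 (standard error 0.58). Myc, a transcription factor gene of cell growth, was above background on 1 pre-pro-B array and rose by 5.82 (standard error 0.37), and the cyclins Ccnd3 and Ccnd2 by 2.57 and 2.03. Bcl2, a survival gene, was the member that fell, by 0.71.

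Surface genes that define pro-B cells in sorting schemes were mostly higher, 7 of 9 with a median change of 3.23 (2.10 under normexp and 1.75 in the authors' deposited table). Cd2, an adhesion molecule, rose by 4.68, Bst1, which carries the BP-3 antigen, by 4.49, Cd24a (heat stable antigen) by 3.31 and Cd93 (AA4.1) by 3.23. Enpep, which carries the BP-1 antigen, was at least 2.63-fold higher. Kit, the stem cell factor receptor, rose from -2.25 and -2.03 to 0.33 and 0.46 (2.53, standard error 0.18), and Cd9 rose by 1.97. Ptprc, which encodes CD45 and its B220 form, fell by 2.73, and Spn (CD43) by 0.49, a call lost under array median scaling (-0.30) and when the 4 arrays were fitted alone.

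Of 19 surface genes of later B cells, 10 were higher and 4 lower (median 0.82; -0.07 among genes above background on all 12 arrays). Ms4a1 (CD20) and the chemokine receptor gene Cxcr5 were not above background in pre-pro-B cells and were at least 4.67-fold and 5.70-fold higher. Cd55, a complement regulator, rose by 3.75. Cd180, a Toll-like receptor relative, fell from 1.29 and 2.07 to -3.15 and -3.21 (-4.86, standard error 0.28).

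Notch pathway genes split by role. The targets Hes1, Heyl, Dtx1 and Nrarp were not well above background on either pre-pro-B array and were measured on both pro-B arrays. Hes1 lay at -0.90 and -0.87 there, at least 9.91-fold higher, and Heyl, Dtx1 and Nrarp were at least 8.02-, 6.81- and 6.31-fold higher. Of the receptors, Notch2 fell by 2.67 (standard error 0.14) and Notch1 by 2.92, although the other probe of Notch1 moved by 0.61 in the opposite direction. Rbpj and Maml1 changed by -0.35 and 0.28, with -1.92 at the other probe of Rbpj. Both calls were lost under array weights, with no filter on dim probes and with the 4 arrays fitted alone. That of Rbpj was also lost under array median scaling and the replicate block. That of Maml1 was also lost under quantile normalization, cyclic loess, normexp and in the authors' deposited table. Both were lost without single arrays as well. Rbpj moved by -0.32 and -0.38 without replicate 1 or 2 of the pre-pro-B arrays and by -0.19 without replicate 1 of the pro-B arrays. Maml1 moved by 0.21 to 0.31 without replicate 1 of the pre-pro-B arrays or either pro-B array.

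The remaining large rises belonged to no list. Among the 12 genes with the largest rise that were measured on all 4 arrays were Cd81, a tetraspanin (8.26, standard error 0.32), Anxa1, an annexin (7.25, 0.21), Pde2a, a cyclic nucleotide phosphodiesterase (7.02, 0.13), Rsph9, a radial spoke gene of cilia (6.78, 0.30), Bfsp2, a lens filament gene (6.17, 0.14), Slit1 (6.07, 0.19), the kinase gene Sgk1 (5.92, 0.42) and Colq (5.91, 0.31; other probe 2.74). Pde2a lay at 0.61 and 0.83 in pre-pro-B cells and at 7.74 and 7.73 in pro-B cells. Further bounds were those of Gfra2, a coreceptor for neurturin (at least 717-fold), Fxyd6 (211-fold), Smtnl2 (150-fold) and Rsph1 (147-fold; other probe 1.86). All of these genes had pro-B replicates closer to each other than to any pre-pro-B array, which their selection by large changes made likely in advance.

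Genes of the cell cycle rose almost without exception. Of 28 S phase genes, 26 were higher and none lower (median 3.05, 15 by at least 8-fold), and of 26 genes of G2 and mitosis, 25 were higher and none lower (median 3.31, 19 by at least 8-fold). Rrm2, a subunit of ribonucleotide reductase, rose from 1.42 and 1.53 to 5.73 and 5.69 (4.23, standard error 0.12), and Uhrf1, Gins2, Gins1 and Pola1, which act in replication and methylation upkeep, by 3.88 to 4.12. Cdk1, the mitotic kinase, rose from -2.06 and -2.26 to 2.46 and 2.45 (4.62, standard error 0.12; other probes 1.94 and 3.18). Nuf2, Top2a, Bub1b and Ccnb1 rose by 4.55, 4.30, 3.94 and 3.79 (other probe of Ccnb1 2.73). The smallest median of these lists over all alternatives was 2.67 for S phase and 2.80 for G2 and mitosis genes.

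Ribosome biogenesis genes moved in the same direction by less, and glycolysis genes lay closer to the changes of all genes. Of 17 ribosome biogenesis genes, 14 were higher and none lower (median 1.20, and 0.75 in the authors' deposited table), led by Gar1 (2.18), Ncl (2.03), Wdr12 (1.94) and Nop58 (1.88), which act in ribosomal RNA modification and processing. Of 16 glycolysis genes, 8 were higher and 1 lower (median 0.60; 3 or 4 lower under quantile normalization, cyclic loess, normexp and in the authors' deposited table). Tpi1, Pgk1, Pdk1 and Pgam1 rose by 2.21, 2.06, 1.66 and 1.16. Ldha, lactate dehydrogenase A, rose by 1.33, with -0.05 and 2.11 at its other probes. Among 12 common reference genes, 4 were higher and 4 lower, from Hprt (2.46) to Gusb (-1.29), with a median of -0.10.

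**Figure D3:**
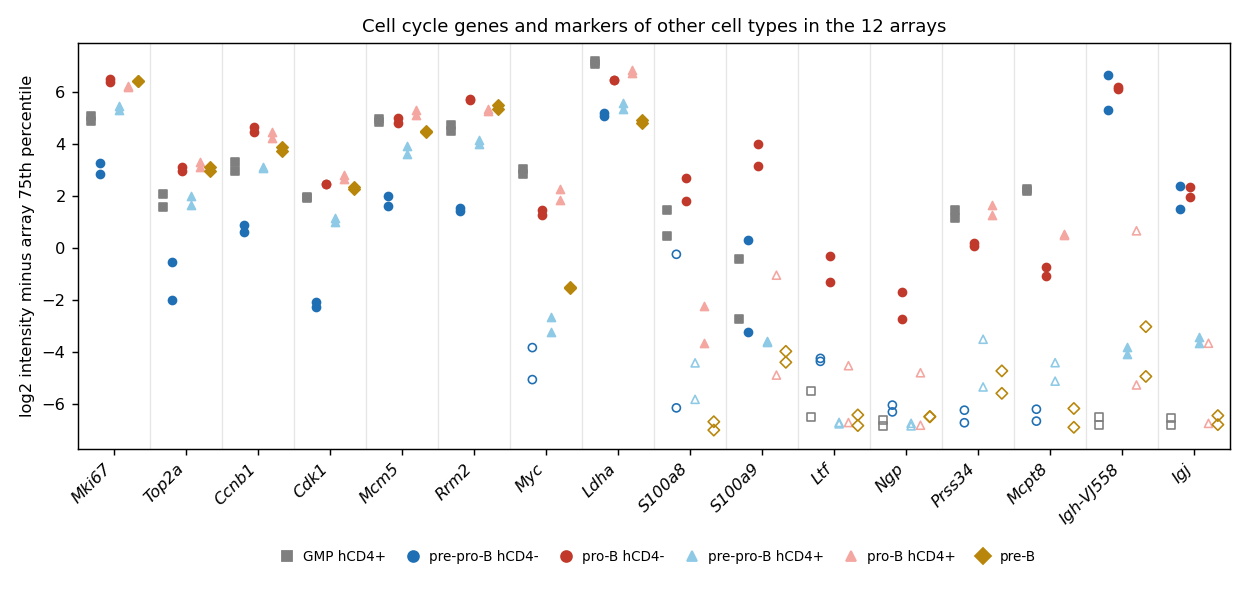
Levels of cell cycle and growth genes and of markers of granulocytes, basophils and antibody secreting cells on the 12 arrays (log2 intensity minus the array's 75th percentile), 2 points per group, with open symbols where the probe was not well above background on both arrays. Cell cycle genes are lowest on the pre-pro-B hCD4- arrays, and Igh-VJ558 and Igj are high on all 4 hCD4- arrays.

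Under the main settings, the lists with the lowest median changes were those of dendritic cells. All 20 kept genes of plasmacytoid dendritic cells fell, 15 of them by at least 8-fold, and the median change was -5.77. Ccr9, a gut homing chemokine receptor, fell from 5.61 and 5.28 to -1.26 and -2.37 (-7.26, standard error 0.52, adjusted p = 6.86e-06; other probe -8.44). Upb1, an enzyme of pyrimidine breakdown, fell from 6.20 and 5.92 to -0.79 and -1.98 (-7.45, standard error 0.46), Cox6a2 by 7.22 and Cd300c by 7.24. Runx2 was at least 126-fold lower and Lag3 fell by 7.68, above background on 1 of 2 pro-B arrays. Bst2, an interferon-induced restriction factor, fell by 4.70. Siglech, a lectin that marks these cells, fell by 0.94 at its brightest probe, which was bright in all 6 groups (6.18 to 7.20), and by 6.67 and 7.87 at its other probes.

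Of 8 kept classical dendritic cell genes, 7 fell and none rose (median -5.48; -3.06 under normexp and -2.75 in the authors' deposited table). Their rank depends on the filter. The median was -1.75 with no filter on dim probes, where 8 of 11 fell. It was -0.58 among the 3 genes above background on all 12 arrays, of which 2 fell. Itgax, which encodes CD11c, had the largest fall of all genes measured on the 4 arrays, from 5.02 and 5.07 to -2.89 and -4.07 (-8.52, standard error 0.68, adjusted p = 1.41e-05). Clec10a, a lectin, fell by 7.91 (standard error 0.70), Cd209a changed by -8.01 (other probe -5.17), and Clec9a was at least 74.8-fold lower. Of these dendritic cell genes, Itgax, Clec10a, Ccr9, Upb1, Cox6a2 and Cd300c stayed well above background on both pro-B arrays, each higher on the first than on the second. The summed level of the 20 plasmacytoid genes was 1000 and 1080 times the 75th percentile on the pre-pro-B and 146 and 144 on the pro-B arrays. Of them, 17 were higher on the first pro-B array, whose median level of the list was -0.96 against -1.74 on the second and 4.49 and 4.70 on the pre-pro-B arrays.

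Genes of antigen presentation by MHC class II fell with 1 exception. Of 10, 9 were lower and 1 higher (median -2.78). Cd74, the invariant chain, fell from 6.39 and 6.26 to 1.57 and 0.56 (-5.26, standard error 0.53), H2-Aa by 4.65, H2-Eb1 by 4.63, H2-DMb1 by 4.18 and Ciita, the transactivator of these genes, by 2.23. H2-Ab1 fell by 1.97 and remained bright in pro-B cells, at 4.79 and 4.65. H2-Ob, which encodes a chain of the peptide exchange inhibitor of B cells, rose from -1.07 and -0.81 to 2.16 and 2.46 (3.25, standard error 0.23).

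**Figure D4:**
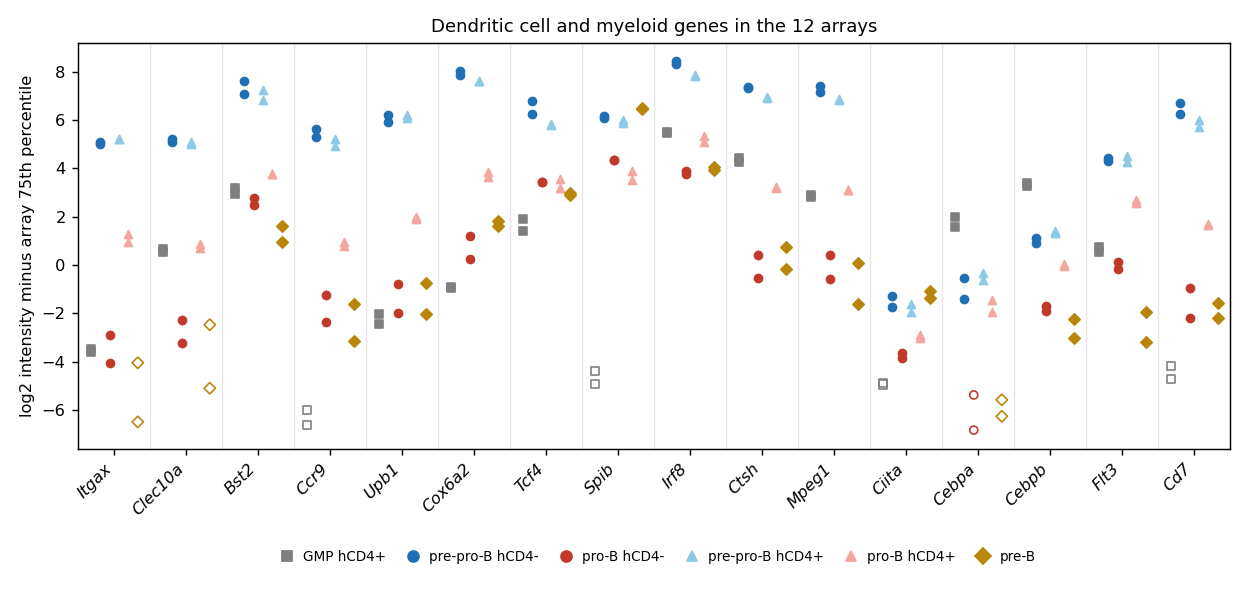
Levels of dendritic cell and myeloid genes on the 12 arrays (log2 intensity minus the array's 75th percentile), 2 points per group, with open symbols where the probe was not well above background on both arrays. Itgax lies near 5 on the pre-pro-B hCD4- arrays and at -2.89 and -4.07 on the pro-B hCD4- arrays, and the pro-B hCD4+ arrays lie between these levels.

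Myeloid regulators fell as well. Of 20 transcription factors and receptors, 12 were lower and 2 higher (median -1.59; -1.01 under normexp and -1.02 in the authors' deposited table). Cebpa, whose regulatory sequence drives the reporter, was measured in the pre-pro-B cells although they were sorted as hCD4-, at -0.55 and -1.42, and was not above background in pro-B cells, at -5.38 and -6.84. It was at least 14.4-fold lower (adjusted p = 3.98e-05). Its relatives Cebpd and Cebpb fell by 4.34 and 2.85. Irf8, a factor of dendritic cells and monocytes that B cells also use, fell from 8.43 and 8.30 to 3.89 and 3.75 (-4.54, standard error 0.12), still among the brighter genes. The adaptors Tyrobp and Fcer1g and the cytokine receptor gene Csf2rb2 fell by 7.17, 6.70 and 6.22.

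The exceptions within that list were Gfi1 and Cebpe. Gfi1, a repressor used in lymphoid and granulocytic cells, rose from -1.61 and -2.02 to 2.59 and 2.52 (4.37, standard error 0.20). Cebpe, a factor of late granulocytes, stayed dim and was at least 1.24-fold higher (adjusted p = 0.0157), a call lost without replicate 2 of the pre-pro-B arrays (adjusted p = 0.0650), without replicate 1 of the pro-B arrays (adjusted p = 0.0931) and under 3 other settings. Sfpi1 (PU.1), Csf3r and Csf1r had changes of -0.16, 0.10 and -0.10 without a call. The probe of Csf3r lay at similar levels in all groups (6.27 to 7.07), and the other probes of Csf1r gave -4.12 and -0.46.

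Of 13 monocyte and macrophage genes, 9 fell and 3 rose (median -3.57; -2.15 under normexp and -1.75 in the authors' deposited table). Mpeg1, a pore protein of phagocytes, fell by 7.38 (other probe -8.51), Lgals3 by 4.50, and Ccr2 and Ms4a6c were at least 32.7-fold and 34.6-fold lower. F13a1, a coagulation factor gene of monocytes and platelets, went the other way: it was not above background in pre-pro-B cells and lay at 1.42 and 1.69 in pro-B cells, at least 53.6-fold higher, with 1.79 at its other probe. Natural killer cell genes had 4 rises and 4 falls among 10 kept members, with the fall of Cd7 (from 6.25 and 6.70 to -0.98 and -2.21) and Klrd1 (-6.51) beside at least 3.54- and 2.87-fold rises of Klra7 and Klrb1c. T cell genes had 5 rises and 7 falls among 14 (median -0.76). Cd8a was at least 69.7-fold lower (other probe -4.94), Ptcra, the pre-T receptor chain, at least 5.10-fold lower, and the kinase gene Zap70 rose by 3.89.

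Homing and adhesion receptors changed without exception, 12 lower and 7 higher of 19 (median -2.87). Itgb7, which pairs with alpha 4 integrin in gut homing, fell by 7.09 and Cxcr3 by 6.30. Cxcr5 and S1pr1, receptors for follicle homing and for egress from tissue, rose by at least 5.70-fold and by 4.73, Itga6 rose by 3.47, and Cxcr4, which retains cells in marrow, by 0.95.

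Early lymphoid progenitor genes moved apart. Of 18, 5 were higher and 9 lower (median -0.55). Flt3, a cytokine receptor of early progenitors that PAX5 is known to repress, fell from 4.41 and 4.30 to 0.11 and -0.17 (-4.39, standard error 0.33), with -5.04 and -0.15 at its other probes. Ly6d fell by 3.65 and Lsp1 by 2.83. The 5 rises were Rag1, Rag2, Gfi1, Dntt and Ltb (1.96). Of 21 kept stem and multipotent progenitor genes, 9 were higher and 8 lower (median -0.56, and -0.05 in the authors' deposited table): Procr was at least 4.65-fold lower and Ly6a (Sca-1) fell by 3.36, while Gfi1b rose by 3.77 and Gata2 and Tal1 were at least 2.78- and 6.45-fold higher.

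Interferon response genes had 12 falls and 7 rises among 25 (median -0.50). Mx1, Irf7 and Oasl2 fell by 4.72, 4.08 and 3.04, and Rtp4 rose by 5.88 (standard error 0.24). Immediate early and handling stress genes had 4 rises and 4 falls among 17 (median 0.40, and -0.11 without replicate 1 of the pro-B arrays). The count of falls was 1 without replicate 2 of the pre-pro-B arrays and without either pro-B array. Egr1 rose from -1.79 and -1.82 to 3.03 and 1.91 (4.27, standard error 0.67), Ier3 by 3.48 and Ier2 by 2.17, while Fosb fell by 2.15.

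Among the remaining falls that were measured on all 4 arrays were Ctsh, a lysosomal protease (from 7.32 and 7.35 to 0.41 and -0.54), D13Ertd608e (-7.42), Gpr162 (-7.43), Sh3bgr (-7.40) and Ppfia4 (-7.28; other probe -0.01). Further bounds were those of Ptprf, a receptor phosphatase (at least 202-fold lower), Cdh5, a cadherin (145-fold), Rtn4rl1 (138-fold), Pira11 (136-fold), Ak8 (126-fold), Ddr1, a collagen receptor (110-fold), and Cdh1, E-cadherin (91.2-fold).

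Markers of granulocytes and basophils were measured in the pro-B cells. Of 13 kept secondary granule and late neutrophil genes, 11 were higher and none lower (median 2.62; 1.17 under normexp and 1.60 in the authors' deposited table). With floored levels 8 were higher and 1 lower (median 1.68), and with no filter on dim probes 11 of 17 were higher and 3 lower. Without replicate 1 of the pro-B arrays the median was 2.20. The summed level of the 13 kept genes was 3.30 and 1.36 times the array's 75th percentile intensity on the pre-pro-B arrays and 28.0 and 15.8 on the pro-B arrays, and all 13 were higher on the first pro-B array than on the second. S100a9 lay at 0.33 and -3.23 and then at a mean of 3.57 (SD 0.61, n = 2) (5.02, standard error 1.44, adjusted p = 0.0161), and S100a8 at -0.24 and -6.14 and then at 2.68 and 1.82 (5.44, standard error 1.58, adjusted p = 0.0171). The pre-pro-B replicates were thus over 3 log2 units apart in both genes. Without replicate 2 of the pre-pro-B arrays S100a9 moved by 3.24 (adjusted p = 0.107), and without replicate 1 of the pro-B arrays S100a9 moved by 4.59 (adjusted p = 0.0756) and S100a8 by 5.01 (adjusted p = 0.0777).

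Ngp, Chi3l3 and Ifitm6 were not above background in pre-pro-B cells and were at least 3.93-, 12.6- and 3.21-fold higher. The primary granule genes did not follow them. Of 13, 5 were higher and 2 lower (median -0.19, but 1.19 without replicate 1 of the pre-pro-B arrays and 0.79 without replicate 1 of the pro-B arrays). Mpo and Elane had no call: Mpo lay at 0.50 and -3.16 and then at -3.39 and -0.54, and Elane at 0.08 and 0.58 and then at -0.17 and -0.28. Lyz1, a lysozyme, was at least 34.9-fold higher, while Plac8 fell by 2.06.

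The basophil genes Prss34 and Mcpt8, which encode proteases, were not above background in pre-pro-B cells and lay at 0.09 and 0.20 and at -1.07 and -0.71 in pro-B cells, at least 20.2-fold and 9.86-fold higher. Of 10 kept genes of basophils, mast cells and eosinophils, 5 were higher and none lower (median 1.69; 0.38 with floored levels, 0.42 under normexp and 0.47 in the authors' deposited table, each with 1 lower), with a summed level of 0.241 and 0.310 and then 2.02 and 2.32 times the 75th percentile. Of 15 kept erythroid and megakaryocyte genes, 9 were higher and 3 lower (median 1.51; 0.75 under normexp, 0.85 in the authors' deposited table and -0.94 among the genes above background on all 12 arrays), with summed levels of 10.8 and 6.50 and then 8.26 and 8.54. Car2, a carbonic anhydrase, rose by 5.51, and Gata1 and Gp9 were at least 5.60- and 3.73-fold higher. The 3 erythroid and megakaryocyte falls became 1 without replicate 1 and 0 without replicate 2 of the pro-B arrays and 2 without replicate 1 of the pre-pro-B arrays. The part of other cell types in these rises was not tested.

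The antibody transcripts Igh-VJ558 and Igj were bright in both hCD4- groups. Igh-VJ558 lay at 5.30 and 6.67 in pre-pro-B and 6.20 and 6.10 in pro-B cells (0.17, standard error 1.59; other probes 3.57, 0.97 and 0.05), and Igj, the joining chain of secreted antibody, at 1.49 and 2.40 and at 2.36 and 1.95. The groups overlapped for both genes. Among the other 4 groups, mean levels ran from -6.65 to -2.30 for Igh-VJ558 and from -6.67 to -3.54 for Igj. Of 6 kept immunoglobulin transcripts, 2 were higher (Igkv5-39, at least 1.80-fold, and Ighg, 1.83 on the log2 scale) and none lower, and the call of Ighg was lost with floored levels (0.30, adjusted p = 0.473), with the 4 arrays fitted alone (adjusted p = 0.0842), without replicate 1 of the pre-pro-B arrays (1.17) and without replicate 1 of the pro-B arrays (1.24). Plasma cell genes had 3 rises and 3 falls among 10, with Irf4 and Slamf7 higher by 2.96 and 2.81 and Xbp1, a secretory pathway factor, lower by 2.39.

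Whether the step differed between hCD4- and hCD4+ cells was tested as a difference of changes, since the hCD4- and the hCD4+ step share no array. The hCD4+ pro-B arrays shared a further slide with the pre-B arrays, so slide and scan cannot be told apart from this difference either. In the hCD4+ step 6100 genes (32.9%) were higher and 3932 (21.2%) lower. Of the genes called in the hCD4- step, 4246 rose and 3017 fell in both, 71 rose in the hCD4- and fell in the hCD4+ step, and 285 did the reverse. The difference itself passed the test for 4263 genes (23.0%), of which 1894 (10.2%) moved more upward in the hCD4- step and 2369 (12.8%) more downward. That split depends on the scaling, with 82.2% of the calls upward under array median scaling, 54.1% under quantile normalization and 59.0% under cyclic loess against 44.4% here.

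The count of differences also rests on single arrays. It was 2689 and 2026 without replicate 1 or 2 of the hCD4- pro-B arrays, 2706 and 2272 without replicate 1 or 2 of the hCD4+ pre-pro-B arrays, and 2467 and 2836 without replicate 1 or 2 of the hCD4+ pro-B arrays. Without replicate 1 of the hCD4- pre-pro-B arrays the downward count rose to 3575.

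Cell cycle genes rose further in the hCD4- step. The difference was called upward for 25 of 28 S phase genes and 25 of 26 genes of G2 and mitosis, against 10.2% of all genes. It was called downward for 1 S phase gene and for no gene of G2 and mitosis. The median changes of these lists were 3.05 and 3.31 in the hCD4- and 1.33 and 0.85 in the hCD4+ step. The pro-B levels were close, with a median level of G2 and mitosis genes of 3.20 and 3.04 on hCD4- pro-B arrays and of 2.85 or more on both hCD4+ pro-B arrays. The hCD4- pre-pro-B arrays, in contrast, lay at 0.18 and -0.43 and the hCD4+ pre-pro-B arrays at 2.16 and 1.92. Cdc25b, a phosphatase that activates mitotic kinases, rose by 4.95 in the hCD4- and 0.85 in the hCD4+ step (difference 4.10, adjusted p = 1.66e-04).

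Dendritic cell and myeloid genes fell further in the hCD4- step. The difference was called downward for 13 of 20 plasmacytoid dendritic cell genes, 5 of 8 classical dendritic cell genes, 7 of 10 MHC class II genes and 9 of 20 myeloid regulators, against 12.8% of all genes. Of the MHC class II calls, those of Cd74, H2-Eb1, Ciita and H2-DMb2 were lost under 10, 9, 13 and 7 alternatives. That of H2-Ab1 was lost under array median scaling (-0.40) and that of H2-Aa without single arrays (-1.84 to -1.78). The median level of the plasmacytoid list was 4.49 and 4.70 on hCD4- and 3.94 and 3.80 on hCD4+ pre-pro-B arrays. On the pro-B arrays it was -0.96 and -1.74 in hCD4- and 0.79 and 0.63 in hCD4+ cells. Itgax had closer starting levels, with a mean of 5.04 on hCD4- and 5.20 on hCD4+ pre-pro-B arrays. Its means were -3.48 and 1.13 on the pro-B arrays (difference of the steps -4.45, adjusted p = 0.0156). Its call was lost without replicate 2 of the hCD4- pro-B arrays (-3.86) and without replicate 1 of the hCD4+ pro-B arrays (-4.29). The difference calls of Clec10a, Cd209a and Lag3 were lost under array weights (adjusted p = 0.0839, 0.0792 and 0.0704) and without single arrays. Cebpa was not above background on the hCD4- pro-B arrays, so its fitted difference of -3.92 (adjusted p = 0.00723) rests on a level that is only a bound. The difference was -2.64 with floored levels, -1.22 under normexp and -1.30 in the authors' deposited table, with a call in each. In the hCD4+ step it changed by -1.21 and remained measurable. Flt3 and Irf8 differed by -2.62 and -1.90.

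B lineage genes differed in part. The difference was called upward for 7 of 19 B lineage transcription factors, 6 of 15 V(D)J recombination genes and 1 of 6 surrogate light chain and CD79 genes, against 10.2% of all genes, and downward for 1, 0 and 0. The 1 surrogate light chain gene was Igll1 (2.51, adjusted p = 0.00513), whose difference was 0.34 without a call when levels were floored at the detection floor. The steps of Ebf1 differed by 0.73 (standard error 0.60) and of Vpreb1 by 0.92 (0.31), neither with a call, which does not show that these steps were alike. Of 13 primary granule genes, 5 had a downward and 2 an upward difference. Elane changed by -0.56 in the hCD4- step and 2.42 in the hCD4+ step (difference -2.98, adjusted p = 0.00153).

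**Figure D5:**
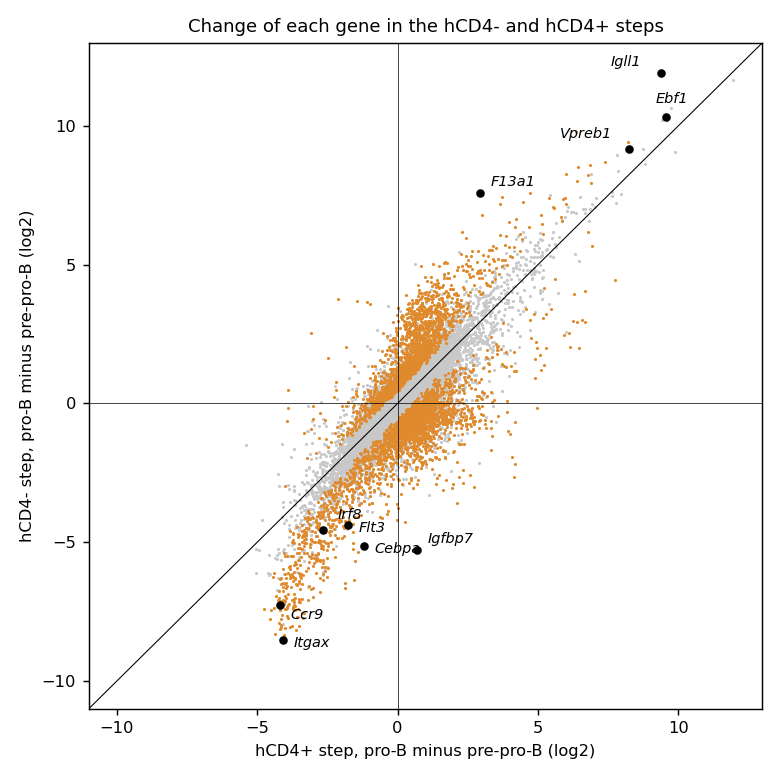
Change of each of 18556 genes from pre-pro-B to pro-B cells (log2) in hCD4+ cells on the horizontal axis and in hCD4- cells on the vertical axis, with orange points where the difference of the steps had an adjusted p under 0.05, black points for the labelled genes and a diagonal of equal change. Ebf1 and Vpreb1 lie near the diagonal, and Itgax, Ccr9 and Cebpa lie below it.

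At the following stage, given side by side because the comparison would share the pro-B arrays, pre-B arrays had mean levels of 4.14 for Ebf1, -0.30 for Pax5 and 4.06 for Rag1, against 4.08, -0.67 and 3.06 on the hCD4- pro-B arrays. Igll1, Vpreb1 and Dntt had means of 3.21, 6.37 and 5.13 in pre-B against 5.53, 8.11 and 7.88 in pro-B cells. Vpreb3, in contrast, had means of 8.13 and 7.96.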

How the data were processed

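Sorted bone marrow cells were profiled on 12 one-colour arrays, 2 for each of 6 groups. Intensity values are the authors' deposited scanner output, made with Agilent Feature Extraction 10.7.3.1 (protocol GE1_107_Sep09, probe positions on mm9), per the file headers. The authors' deposited table of log2 values served as an alternative; its normalization is not given in the sources used here. Levels are log2 of the processed signal minus the array's 75th percentile. Control spots and 2469 outlier spot values were left out, and no spot was saturated. Probes stayed in if some group had both of its arrays well above background, which left 23298 probes, and the brightest of these stood for a gene, giving 18556 genes, of which 6249 have clone or accession names. limma 3.58.1 (R 4.3.3) fitted all 12 arrays with 6 group means, 6 residual and 2.14 prior degrees of freedom, and Benjamini-Hochberg adjusted p-values over all genes at 0.05. The scripts were tested on simulated data.

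The members and gene lists were chosen with earlier results of these data known. Genes were named by a rule: the 12 largest rises and falls measured on all 4 arrays, the 8 largest bounds in each direction, the 4 largest differences of the steps in each direction, up to 5 members of each list (all members of lists up to 10) and a fixed set of stage markers. Other list members were named after their values were seen, and some named by the rule are not reported here. Changes of other kept probes of a gene are given where they differ from the printed change by over 1 on the log2 scale, a choice made after seeing the data. Alternatives covered the scaling, background correction, dim probe filter, choice of probe, floor, samples fitted, array weights, a replicate block and leaving out each array. Replicate numbers were not taken to pair arrays, since the labels do not say that they mark an animal. Promoter windows were read with Python 3.11.15, and figures were drawn with matplotlib 3.10.9. The number of arrays limits the precision.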

Additional observations from a re-analysis of the deposited data

Results flagged for a closer look

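The 4 largest differences in each direction and those of 8 stage markers are given here. For these genes the change from pre-pro-B to pro-B cells differed between hCD4- and hCD4+ cells in the test of the difference itself (limma, adjusted over 18556 genes, 2 arrays per group). The difference is the hCD4- step minus the hCD4+ step on the log2 scale, and 23.0% of all genes had one. The 4 largest upward differences were those of Grhl2 (5.88, adjusted p = 0.00855), Pf4 (5.63, adjusted p = 0.0156), F13a1 (4.64, adjusted p = 8.10e-05) and Cdc25b (4.10, adjusted p = 1.66e-04). Grhl2 and F13a1 were not above background on either hCD4- pre-pro-B array, so these values rest on levels that are only bounds. With floored levels their differences were 2.23 and 2.80, and they were 0.90 and 0.75 in the authors' deposited table, still with a call. The call of Pf4 was lost without replicate 2 of the hCD4- pro-B arrays (adjusted p = 0.0551) and without replicate 2 of the hCD4+ pro-B arrays (adjusted p = 0.0505). The 4 largest downward differences were those of Ampd3 (-6.03, adjusted p = 1.66e-04), Igfbp7 (-5.96, adjusted p = 0.00495), Pgk2 (-5.21, adjusted p = 0.0330) and Vmo1 (-5.15, adjusted p = 0.0225). Ampd3 was not well above background on any of the 4 hCD4- arrays, and Igfbp7, Pgk2 and Vmo1 on neither hCD4- pro-B array. With floored levels the differences of Ampd3, Igfbp7 and Vmo1 were -2.60, -3.05 and -1.89, and that of Vmo1 lost its call (adjusted p = 0.0893). The call of Pgk2 was lost under quantile normalization (-4.65, adjusted p = 0.0606), cyclic loess (-4.50, adjusted p = 0.0531) and no filter (adjusted p = 0.0599), and those of Pgk2 and Vmo1 without single arrays.

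Among stage markers, Flt3 (-2.62, adjusted p = 0.00752), Cebpa (-3.92, adjusted p = 0.00723), Elane (-2.98, adjusted p = 0.00153), Irf8 (-1.90, adjusted p = 4.19e-04) and Ccr9 (-3.06, adjusted p = 0.0221) differed downward. Rag2 (1.48, adjusted p = 0.0419), Igll1 (2.51, adjusted p = 0.00513) and Gfi1 (1.01, adjusted p = 0.0338) differed upward. The call of Rag2 was lost under 11 of 19 alternatives, among them floored levels (0.25, adjusted p = 0.535) and the authors' deposited table (0.40, adjusted p = 0.0524). That of Gfi1 was lost under 9 of 20, with values of 0.79 to 1.05, and that of Ccr9 under 5 of 19. Igll1 lost its call with floored levels (0.34).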

How the results depend on the processing

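The count of genes called in the step stayed within 1.5 times under every alternative run, from 8567 among genes above background on all 12 arrays (13554 tested) to 15766 with no filter on dim probes, where more genes were tested (31541) and 9872 were lower. Leaving out 1 array gave 8987 to 11519 calls, 5078 to 6063 of them higher and 3909 to 5456 lower. The difference of the steps moved more: array median scaling gave 6401 calls, 5260 higher and 1141 lower, and shifted the median difference of all genes from -0.06 to 0.46. With no filter 1161 differences were higher. Leaving out 1 array gave 2026 to 6092 differences, 956 to 2517 higher and 1070 to 3575 lower. The replicate block gave 11476 calls in the step (6253 higher, 5223 lower) and 4775 differences. Among named genes, floored levels reversed the step of Igk-C (-0.64) and Igkv4-53 (-0.61) and the difference of Mcpt8 (-1.73). The floors themselves were lower on the pro-B hCD4- arrays (-4.91 and -4.74) than on the pre-pro-B hCD4- arrays (-4.41 and -3.97). A gene below the floor on all 4 arrays therefore takes a negative floored change in the step. Normexp reversed the differences of Mcpt8 (-0.81) and Nrarp (0.60), and the authors' deposited table those of Mcpt8 (-0.85), Nrarp (0.70), Pax5 (0.45) and Ldha (-0.65). The cause was not tested. Over all alternatives 3023 step values of named genes kept direction and side of the threshold, 47 lost and 17 gained a call and 2 reversed. For the differences these counts were 3560, 297, 140 and 7. A probe not well above background gives only a bound.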
